A study of Homo sapiens with 2 samples.

Results

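NRF-1 peaks that were weak, were found in both conditions and lay away from protein-coding genes were described in U251, a human cell line established from a glioblastoma. In one condition the cells received a non-targeting siRNA (siControl) and in the other they received 1 siRNA oligonucleotide that targets AATF (siAATF), and NRF-1-bound chromatin was profiled by ChIPmentation, a form of chromatin immunoprecipitation in which the Tn5 transposase inserts the sequencing adapters. There was 1 peak list per condition, with 18014 peaks in siControl and 18454 in siAATF, so no replicate spread could be computed and no test between conditions was made. The regions were chosen by measured values: they were siControl peaks on chromosomes 1 to 22 and X with a −log10 q under 10 that overlapped a siAATF peak by at least 1 base, lay outside 1 kb on either side of every protein-coding and lncRNA transcript start, and overlapped no protein-coding gene body. Of 17850 siControl peaks on these chromosomes, 8947 were under that limit, 4047 of those lay away from starts, 2002 of those lay outside coding genes, and 1318 of those overlapped a siAATF peak. The 1318 regions made up 7.32% of the siControl list. Peak lists do not measure expression, so neither the labelled line nor the level of AATF was checked against marker genes. All positions are on hg19.

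The transcription factor NRF-1 recognises a GC-rich palindrome as a dimer and is best known at the promoters of nuclear genes for mitochondrial proteins. AATF is a transcriptional cofactor that the study examined as a partner of NRF-1. Distal peaks of a promoter-bound factor often fall in open chromatin that other factors occupy. Among these, AP-1 (dimers of the FOS and JUN families) marks many enhancers of glial and mesenchymal cells, and CTCF is the zinc finger protein that binds insulators and loop anchors. Repeated DNA next to centromeres is a second kind of distal sequence, where short-read alignments are often ambiguous and assembly gaps are long.

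The sequences that the results turn on are shown first. The exact NRF-1 core GCGCATGCGC, the half-site GCGCA followed by its reverse complement, was present 15 times in 13 of the 1318 regions, and 14 of these windows are printed to show which flanks surrounded the core. Each line gives the core in capitals with 20 bases on either side, on the plus strand:
chr2:22410710-22410759: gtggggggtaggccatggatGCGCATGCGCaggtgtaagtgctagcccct
chr4:49628673-49628722: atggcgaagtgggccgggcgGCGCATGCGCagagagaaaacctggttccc
chr4:132651170-132651219: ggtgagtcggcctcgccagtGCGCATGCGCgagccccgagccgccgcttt
chr9:44873198-44873247: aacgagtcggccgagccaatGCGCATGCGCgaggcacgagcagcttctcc
chr9:68413199-68413248: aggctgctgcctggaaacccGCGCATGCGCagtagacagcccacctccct
chr12:34487664-34487713: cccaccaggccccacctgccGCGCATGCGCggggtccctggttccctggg
chr12:34496259-34496308: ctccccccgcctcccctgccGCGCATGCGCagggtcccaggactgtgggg
chr12:34496448-34496497: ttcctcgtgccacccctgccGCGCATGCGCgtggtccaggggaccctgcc
chr12:34496852-34496901: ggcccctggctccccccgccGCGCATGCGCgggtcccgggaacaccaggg
chr12:34498926-34498975: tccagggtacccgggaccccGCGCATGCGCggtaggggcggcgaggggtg
chr12:34503565-34503614: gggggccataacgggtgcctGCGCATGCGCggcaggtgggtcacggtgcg
chr12:34507871-34507920: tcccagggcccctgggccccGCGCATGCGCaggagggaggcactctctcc
chr12:34509769-34509818: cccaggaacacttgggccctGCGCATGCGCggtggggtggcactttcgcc
chr17:21906270-21906319: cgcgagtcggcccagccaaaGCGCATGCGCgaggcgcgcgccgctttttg
Of these windows, 8, in 6 regions, lay in a single stretch of chromosome 12. The windows on chromosomes 9 (44873198) and 17 (21906270) had the same base at 30 of the 40 flanking positions (75%), and the window at chromosome 4 (132651170) matched each of these at 27 of 40 (67.5%). On chromosome 12 the window at 34498926, read on the other strand, matched that at 34487664 at 30 of 40 positions (75%) and that at 34496448 at 28 of 40 (70%). Over all pairs printed, on either strand, 30 of 40 was the highest match.

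The next windows show the AP-1 word and the CTCF word, in capitals with 20 bases on either side, in regions of high −log10 q that held the word within 100 bp of the peak midpoint. The AP-1 word was TGACTCA on either strand, so that it reads TGAGTCA where it is on the minus strand. The CTCF word was CCNNNAGNNGGCNNC, a short part of the CTCF motif in which N is any base.
AP-1, chr19:13962381-13962427: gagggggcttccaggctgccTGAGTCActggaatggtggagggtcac
AP-1, chr2:87929120-87929166: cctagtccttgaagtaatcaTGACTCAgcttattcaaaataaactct
AP-1, chr1:31643818-31643864: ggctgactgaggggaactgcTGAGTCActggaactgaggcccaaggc
CTCF, chr13:97762314-97762368: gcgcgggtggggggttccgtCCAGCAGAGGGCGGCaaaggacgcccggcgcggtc
CTCF, chr17:19896221-19896275: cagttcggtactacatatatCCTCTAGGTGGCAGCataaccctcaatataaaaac
CTCF, chr19:48453402-48453456: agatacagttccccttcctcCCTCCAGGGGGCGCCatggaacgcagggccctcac
A last sequence, of 120 bases, shows the pericentromeric kind of region, with each GGAAT unit of the satellite repeat in capitals.
satellite, chr21:10819745-10819864: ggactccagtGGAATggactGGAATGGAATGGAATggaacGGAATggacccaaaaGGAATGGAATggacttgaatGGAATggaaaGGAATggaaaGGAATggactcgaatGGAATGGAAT

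Within 100 bp of the midpoint, 40.9% of the 1318 regions held the NRF-1 half-site and 15.2% held the AP-1 word. Few regions held a recognisable full NRF-1 core. Anywhere in the peak, the half-site GCGCA was present in 720 regions (54.6%, exact Clopper-Pearson 95% CI 51.9 to 57.3). It was in 386 of 2497 windows of equal width placed 10 kb to either side, outside all peaks (15.5%, 14.1 to 16.9). The difference was 39.2 percentage points (Newcombe 95% CI 36.1 to 42.2). A control word with the same bases, ACGGC, was in 32.9% of the regions and 14.1% of the windows. The half-site share was 55.7% in weaker shared peaks inside coding genes (difference −1.03 points, −4.84 to 2.78). It was 85.6% in stronger shared peaks away from starts, those with a −log10 q of 10 or more, and 76.9% in weaker shared peaks at starts. In weaker siControl-only peaks outside coding genes it was 30.3%. Within 100 bp of the midpoint it was 43.6% inside coding genes and 71.2% in stronger shared peaks. All intervals here cover counting error only, since regions of 1 library are not replicates of a condition.

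Distance from the peak midpoint separated the half-site from its control word more clearly. Distances were counted whatever the width of the peak. With a median width of 406 bp, sequence 300 to 500 bp from the midpoint lay outside most of the regions. Within 50 bp of the midpoint the half-site occurred 3.75 times per kb, against 0.844 per kb at 300 to 500 bp, a ratio of 4.44. The control word occurred 1.02 and 0.700 times per kb, a ratio of 1.46. For weaker shared peaks at coding or lncRNA starts these ratios were 2.02 for the half-site and 1.67 for the control word, so the half-site was less concentrated at the centre there. Weaker shared peaks inside coding genes had a ratio of 6.17, and stronger shared peaks away from starts, those with a −log10 q of 10 or more, had a ratio of 7.65. Median widths were 620 bp at starts, 395 bp inside coding genes and 677 bp for stronger peaks, and the part of width in these ratios was not tested.

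**Figure D1:**
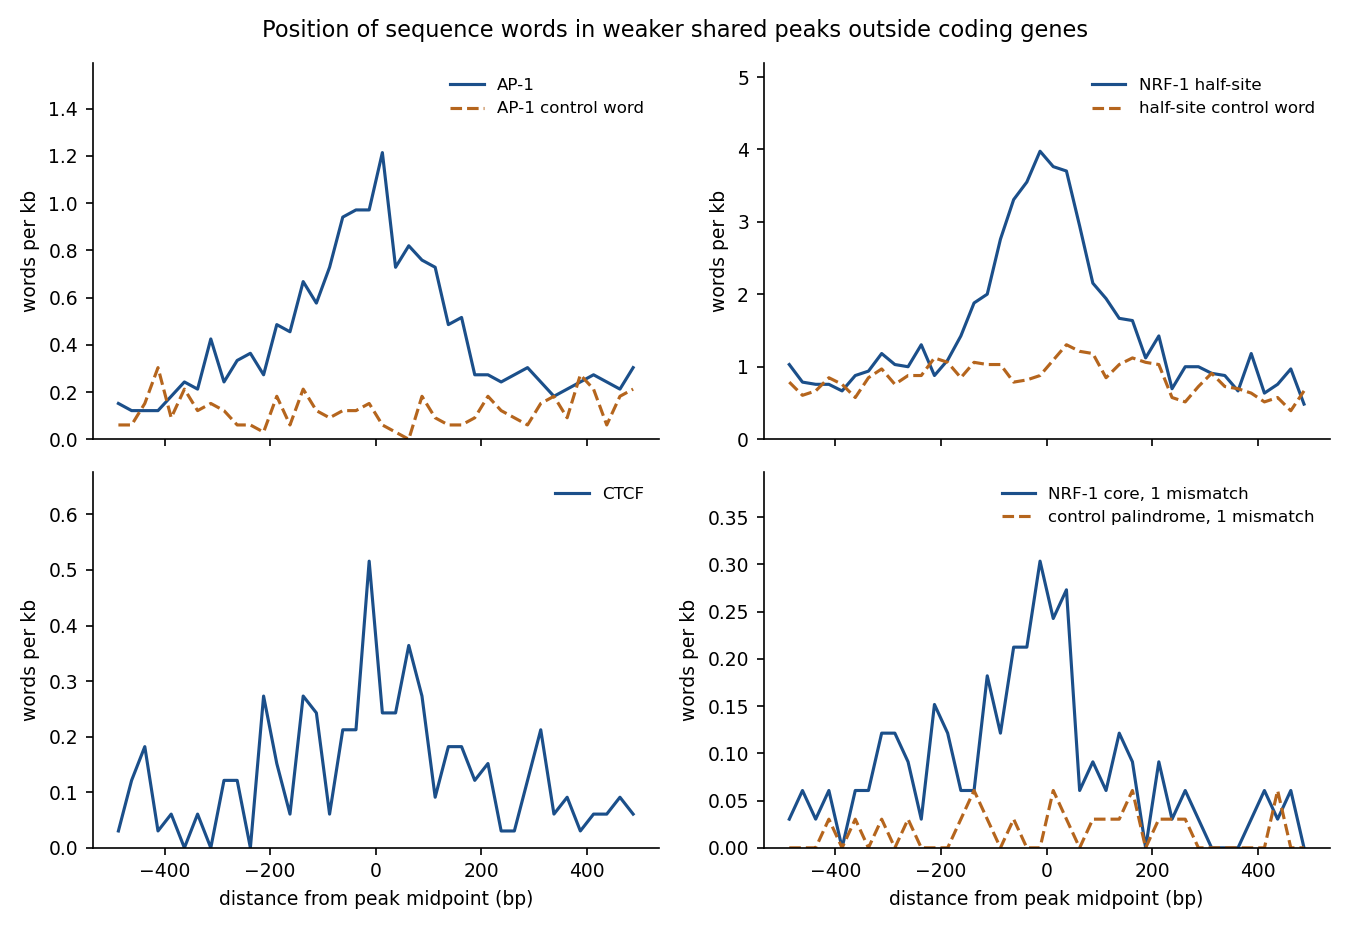
Density of sequence words (words per kb, y axis) in 25-bp bins by distance from the peak midpoint (bp, x axis) around the 1318 weaker shared peaks outside coding genes, whatever their width, with control words of the same base composition as dashed lines. The AP-1 word rose to 0.971 per kb within 50 bp of the midpoint from 0.218 per kb beyond 300 bp, while its control word did not rise.

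The full core was uncommon. The core with up to 1 mismatch was in 59 regions (4.48%, 3.42 to 5.74), beside 0.561% of the windows 10 kb away and 1.14% of the regions for a control palindrome with the same bases. The share was 24.8% in stronger shared peaks away from starts, a difference of −20.4 percentage points (−23.2 to −17.5), and it was 2.87% in weaker shared peaks inside coding genes and 1.80% in those at starts. Of the 59 regions, 13 lay in a single group on chromosome 12, described below. Without that group, a comparison chosen after seeing the data, the core was in 46 of 1304 regions (3.53%, 2.59 to 4.68). That interval includes the 2.87% inside coding genes. Stronger peaks were wider, with a median of 677 bp against 406 bp, and a wider peak holds more words. Within 100 bp of the midpoint, where width matters less, the core with up to 1 mismatch was in 3.34% of the regions and 19.9% of the stronger peaks.

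The AP-1 word was present in 287 regions (21.8%, 19.6 to 24.1). It was in 7.33% of the windows 10 kb away, a difference of 14.4 percentage points (12 to 16.9), whereas the word read backwards was in 3.57% of the regions and 5.97% of the windows. Of the 287 regions, 56 (19.5%) held the word more than once. The share was higher in weaker shared peaks inside coding genes (29.2%, difference −7.45 points, −10.8 to −4.11) and its interval for the difference from stronger shared peaks away from starts included 0 (20.4%, difference 1.37 points, −1.97 to 4.66). It was lower in weaker siControl-only peaks outside coding genes (12.9%, difference 8.91 points, 5.45 to 12.2) and in weaker shared peaks at starts (8.09%, difference 13.7 points, 11.4 to 16.1). Within 100 bp of the midpoint, where peak width matters less, the AP-1 word was in 200 regions (15.2%), and the differences were −3.90 points (−6.79 to −1) from weaker shared peaks inside coding genes, 3.62 points (0.846 to 6.35) from stronger shared peaks and 3.92 points (0.744 to 6.88) from siControl-only peaks.

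The CTCF word was in 118 regions (8.95%, 7.47 to 10.6) and in 1.40% of the windows 10 kb away. No control word was searched for it, and the windows were not matched in GC content. It was denser within 50 bp of the midpoint, at 0.303 per kb, than beyond 300 bp, at 0.0721 per kb. Weaker shared peaks inside coding genes had a share of 7.52%, which did not differ beyond counting error (difference 1.43 points, −0.685 to 3.55), and stronger shared peaks away from starts had 12.9% (difference −3.94 points, −6.54 to −1.42). Within 100 bp of the midpoint the latter difference was −0.595 points (−2.50 to 1.22), an interval that includes 0. In 433 regions (32.9%) at least 1 of these was found: the AP-1 word, the CTCF word, or the core at up to 1 mismatch. This combined share is given without that of the windows or of other peaks, and holding a word does not show what bound there. Neither the AP-1 word nor the half-site was found in 430 regions (32.6%).

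**Figure D2:**
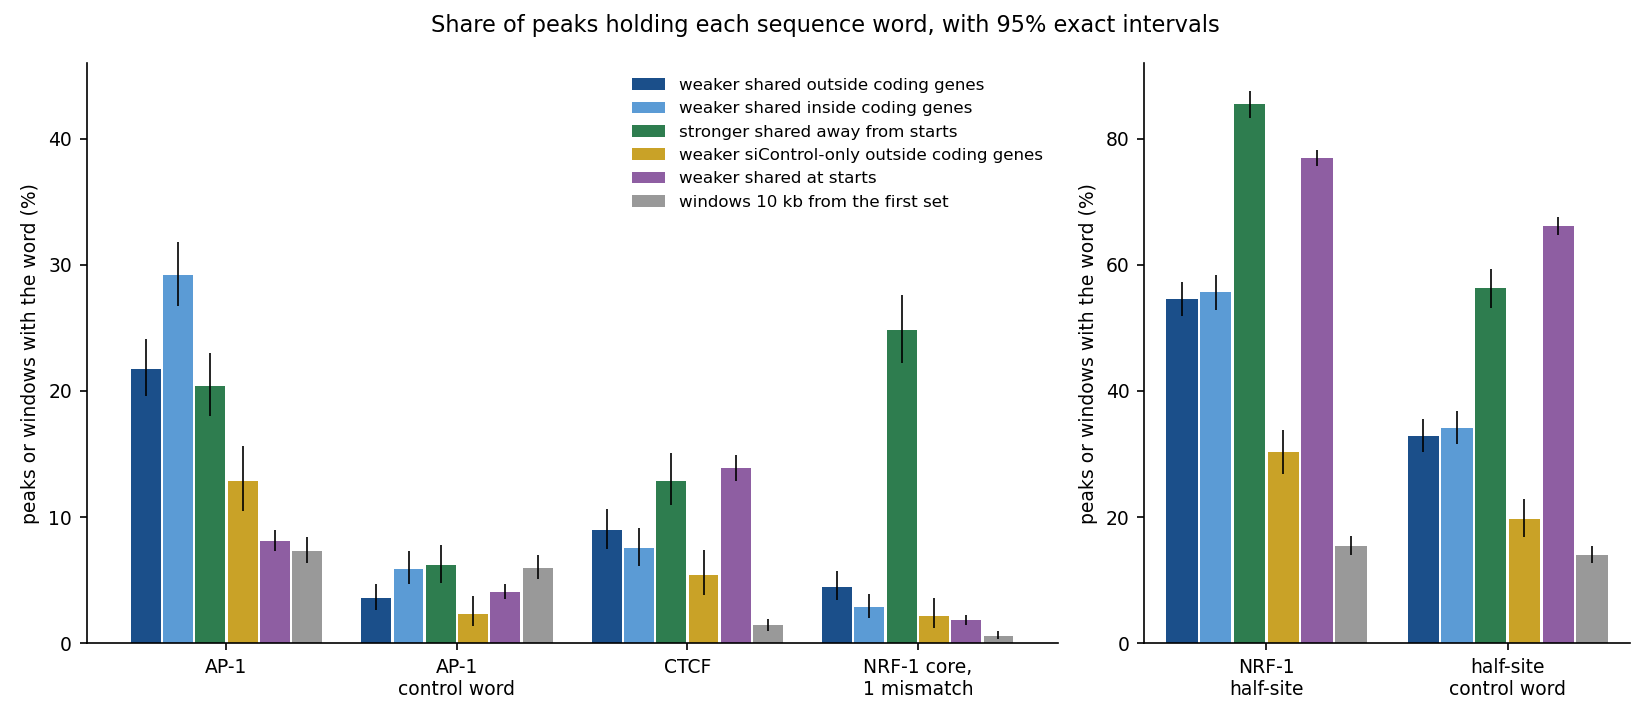
Share of peaks or windows (%, y axis) holding each sequence word (x axis) in weaker shared peaks outside coding genes, in 4 other sets of siControl peaks and in windows 10 kb from the first set, with exact 95% intervals as bars. The AP-1 word was in 21.8% of the regions and 7.33% of the windows, and the core with up to 1 mismatch was in 4.48% of the regions and 24.8% of the stronger peaks.

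The other words searched gave a mixed picture. No control words were searched for them, and the windows were not matched in GC content. The GC box GGGCGG, the word for SP and KLF factors, was in 519 regions (39.4%) against 10.6% of the windows. It was in 39.5% of weaker shared peaks inside coding genes, 63.6% of stronger shared peaks away from starts and 84.5% of weaker shared peaks at starts. The ETS word CCGGAAG was in 69 regions (5.24%) against 1.84% of the windows. The CRE word TGACGTCA, bound by CREB and ATF factors, was in 18 (1.37%) against 0.280%. The E-box CACGTG was in 128 regions (9.71%) against 6.09%. The RUNX word TGTGGTT was in 6.83% of the regions and 7.13% of the windows, and the NFY word CCAAT was less frequent in the regions (35.0%) than in the windows (42.5%). The TEAD word GGAATG, which contains the satellite unit GGAAT, was in 384 regions (29.1%) against 23.5%. It was in 63 of 117 regions near long assembly gaps (53.8%) and in 321 of 1201 others (26.7%). The windows 10 kb from those others held it in 21.8%. The part of repeats in these counts was not tested.

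Base composition divided the regions. The median GC content was 58.7% (58.0 to 59.3), close to 58.4% in weaker shared peaks inside coding genes and below 67.4% in those at starts. By a GC content of at least 55% and an observed-to-expected CpG ratio of at least 0.65, 302 regions (22.9%, 20.7 to 25.3) were CpG rich, against 16.7% of weaker shared peaks inside coding genes (difference 6.17 points, 3.11 to 9.21), 11.7% of weaker siControl-only peaks outside coding genes (difference 11.2 points, 7.80 to 14.4), 42.6% of stronger shared peaks away from starts and 79.4% of weaker shared peaks at starts. The AP-1 word was in 19 of the 302 CpG-rich regions (6.29%, 3.83 to 9.65) and in 268 of the other 1016 (26.4%, 23.7 to 29.2). The half-site, which itself contains CpG, showed the opposite order, with 236 of 302 (78.1%) against 484 of 1016 (47.6%). The CpG-rich regions also lay nearer to coding starts, at a median of 28.8 kb (22.7 to 36.6) against 43.4 kb (38.6 to 48.2).

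The values of the regions in both lists followed from their choice on the siControl side and are given as a description. In siControl the fold enrichment spanned 1.84 to 7.79 (median 4.52) and the −log10 q spanned 1.08 to 9.98 (median 4.07). The overlapping siAATF peaks had a median fold enrichment of 4.56, from 1.73 to 8.62, and a median −log10 q of 4.34, from 1.10 to 26.5. Of the 1318 siAATF counterparts, 82 (6.22%) reached a −log10 q of 10 or more, and 3 regions overlapped more than 1 siAATF peak. The siAATF peaks were slightly wider, with a median of 406 bp (397 to 422) on the siControl side and 435 bp (423 to 443) on the siAATF side. In 657 regions (49.8%) the siAATF peak covered at least 90% of the siControl peak. The regions just inside the limit, on chromosomes 13 (97762175 to 97762507) and 17 (19896114 to 19896502), both had a −log10 q of 9.98, with 6.93 and 13.2 in siAATF. The peaks just outside it, on chromosomes 14 (105292683 to 105293257) and 12 (133174474 to 133175315), had 10.03 and 10.04, with 7.50 and 11.1 in siAATF.

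**Figure D3:**
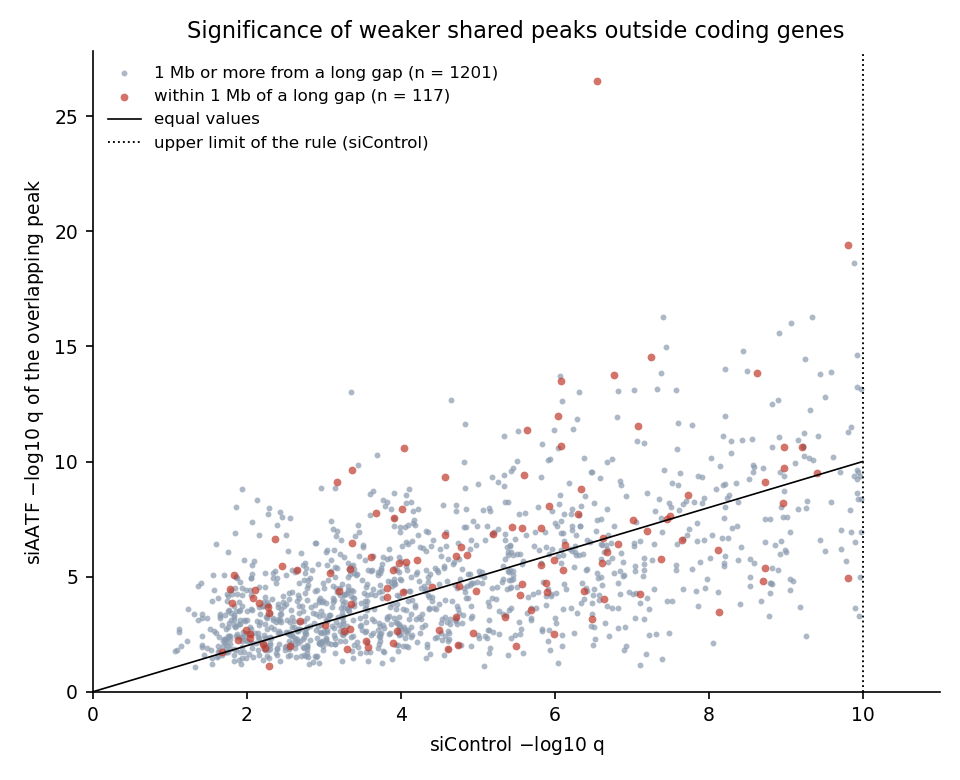
The −log10 q of each of the 1318 regions in siControl (x axis) and of its overlapping peak in siAATF (y axis), with the 117 regions within 1 Mb of a long assembly gap in red and the other 1201 in grey. The siControl values end at the limit of 10 that chose the regions, and the siAATF values reach 26.5.

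Fold enrichment is relative to each library's own background, so positions within the lists were compared as percentile ranks, from 0 for the weakest peak to 100 for the strongest. The median rank by fold enrichment was 28.2 (27.1 to 29.3) in siControl and 31.3 (29.7 to 32.7) in siAATF. The rank was higher in siAATF for 744 of 1318 regions (56.4%, 53.7 to 59.1). The limit on −log10 q applied to siControl only, and when the same rule was applied to the siAATF list instead, 670 of 1332 peaks (50.3%, 47.6 to 53.0) ranked higher in siAATF. A rise of more than 20 points was seen for 188 regions (14.3%) and a fall of more than 20 points for 106 (8.04%). Over all 15838 shared siControl peaks, which include stronger ones, these shares were 5.73% and 4.19%. The quartiles of the change in rank were −7.52 and 13.35 points for the regions. They were similar in weaker shared peaks inside coding genes, at −7.15 and 14.02 points. Weaker shared peaks at starts had −5.81 and 10.66, and stronger shared peaks away from starts −7.62 and 5.21. The spread was thus not particular to the regions, and the part of peak strength in it was not tested.

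Changes in rank were compared between regions with and without each word. The median change in rank was 4.35 points (2.60 to 6.32) for the 287 regions with the AP-1 word and 1.44 points (0.184 to 2.68) for the 1031 without it, with intervals that overlapped slightly. For the 118 regions with the CTCF word it was 8.18 points (3.41 to 10.5), against 1.72 points (0.697 to 2.82) for the other 1200. Of the CTCF regions, 22 (18.6%) rose and 3 (2.54%) fell by more than 20 points, and of the AP-1 regions 46 (16.0%) rose and 22 (7.67%) fell, beside the 14.3% and 8.04% of all regions. The regions with the CTCF word were also wider, with a median of 494 bp (454 to 552) against 402 bp (390 to 413), and richer in GC, with 65.9% (63.3 to 68.1) against 58% (57.3 to 58.7), and the part of either in the change was not tested. The regions with and without the AP-1 word had median widths of 418 bp (388 to 446) and 405 bp (393 to 420). With the limit of 10 set in both lists the medians were 3.94 points (1.72 to 5.55) with and 0.208 points (−0.354 to 1.72) without the AP-1 word, and 6.07 points (2.5 to 8.62) with and 0.743 points (−0.0562 to 1.72) without the CTCF word. With the rule applied to the siAATF list they were 2.35 points (1.08 to 4.46) and −0.454 points (−1.94 to 0.103) for the AP-1 word, and 3.69 points (−0.251 to 8.45) and −0.0819 points (−0.988 to 0.622) for the CTCF word. The interval for CTCF then overlapped that of the other regions. In weaker shared peaks inside coding genes the AP-1 word went with 4.87 points (3.08 to 6.75) against 2.00 points (0.600 to 3.25), and the CTCF word with 3.26 points (−3.00 to 6.83) against 2.76 points (1.88 to 4.12), with intervals that overlapped for both words.

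The intervals with and without the half-site, and with and without the core, also overlapped. The median change was 2.66 points (1.40 to 4.06) with the half-site and 1.72 points (0.0752 to 3.24) without it. For the 59 regions with the core at up to 1 mismatch it was 0.02 points (−6.76 to 3.53), against 2.38 points (1.44 to 3.46) for the rest. With 1 list per condition these are differences between 2 libraries, and AATF depletion cannot be told apart from any other difference between them.

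The share of weaker peaks found again in siAATF, the measure that chose the regions, depended on siControl significance. Of the 2002 weaker siControl peaks outside coding genes and starts, 1318 were shared (65.8%, 63.7 to 67.9), against 63.1% (60.9 to 65.2) of those inside coding genes, 88.3% (87.4 to 89.2) of those at starts and 88.7% of all siControl peaks on these chromosomes. By −log10 q the share outside coding genes was 34.6% from 1 to 2, 48.3% from 2 to 3, 76.2% from 3 to 5 and 95% from 5 to 10. At starts the shares in the same bands were 49.0%, 71.3%, 91.1% and 99.5%, so that starts were higher in each band with intervals that did not overlap. Shared weaker peaks at starts were wider, with a median of 620 bp against 406 bp, and the part of width in these shares was not tested. Inside coding genes they were 30.5%, 52.6%, 73.6% and 95.1%, with intervals that overlapped those outside coding genes in each band.

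**Figure D4:**
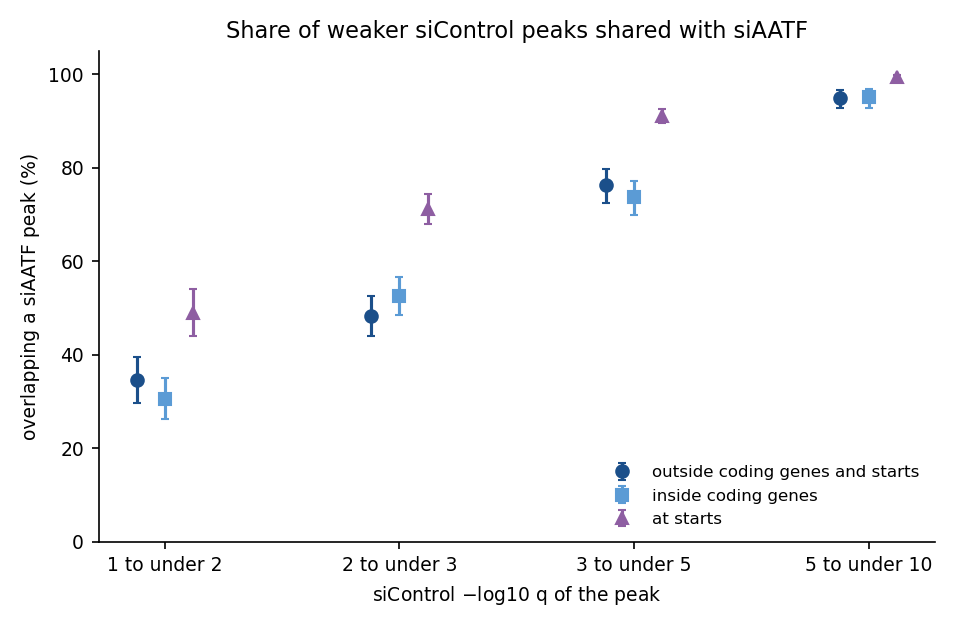
Share of weaker siControl peaks that overlapped a siAATF peak (%, y axis) by band of siControl −log10 q (x axis) and by location, with exact 95% intervals. The share outside coding genes rose from 34.6% in the weakest band to 95% in the strongest.

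By location, 1037 of the regions (78.7%, 76.4 to 80.9) overlapped no annotated gene of any kind. Among weaker siControl-only peaks outside coding genes the share was 74.9% (difference 3.83 points, −0.0349 to 7.82). The nearest coding start lay at a median of 39.2 kb (36.1 to 43.7), beside 42866 bp (37507 to 48581) for those siControl-only peaks. It was 12.6 kb for weaker shared peaks inside coding genes and 20.1 kb for stronger shared peaks away from starts. Both of these latter sets include peaks inside coding genes, which the rule left out, so a greater distance than theirs followed from the choice of regions. For the regions, the distances to the nearest coding start were as follows. It was within 10 kb for 213 regions (16.2%), within 50 kb for 748 (56.8%), over 100 kb away for 360 (27.3%) and over 1 Mb away for 19 (1.44%). The number of regions per 100 Mb of sequenced chromosome ran from 18.8 on chromosome 13 to 115 on chromosome 22, and it was 113 on chromosome 17 and 102 on chromosome 19. These densities were not set beside those of all peaks or of coding genes.

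A lncRNA body held 239 regions (18.1%, 16.1 to 20.3), of which 210 (87.9%) were intronic only and 29 (12.1%) reached an exon. That share was higher than in weaker shared peaks inside coding genes (6.28%) and did not differ beyond counting error from that of weaker siControl-only peaks outside coding genes (19.4%, difference −1.31 points, −5.02 to 2.23). The 239 regions fell in 243 lncRNA genes, since some genes overlap, and 21 of these genes held at least 2 regions. LINC00665 held 3, and LINC00511 and MIRLET7BHG, the host transcript of let-7 miRNAs, held 2 each. Regions in lncRNA bodies had a median rise in rank of 5.12 points (1.72 to 7.03), against 1.72 points (0.551 to 2.71) for regions in no annotated gene, with intervals that overlapped.

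Starts of transcripts of any other type, among them small RNAs and pseudogenes, were not removed by the rule and were within 1 kb of 89 regions (6.75%). This share is given without that of other peaks. Processed pseudogenes accounted for 35, unprocessed pseudogenes for 10, miRNAs for 10 and small nuclear RNAs for 6. The region at RNU4-1 on chromosome 12 (120730871 to 120731235), a gene for the U4 RNA of the spliceosome, had a fold enrichment of 4.54 in siControl and 5.15 in siAATF. At MIR124-3 on chromosome 20 (61810190 to 61810910), a gene for the neuronal miRNA miR-124, the fold enrichment was 3.52 and 3.92. At the 5S ribosomal RNA gene RNA5S6 on chromosome 1 there were 2 regions, with 4.33 and 5.53 in siControl and 5.09 and 5.11 in siAATF. These latter regions were 85.9% and 95.8% repeated sequence by the measure described next, so their reads could come from other copies.

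Repeated sequence was measured as the share of 31-base words of a region that occur more than once in the assembly. At least 50% of the words were repeated in 160 regions (12.1%, 10.4 to 14), against 2.48% of weaker shared peaks inside coding genes, 1.82% of those at starts, 7.31% of stronger shared peaks away from starts and 15.4% of weaker siControl-only peaks outside coding genes. In 901 regions (68.4%) no word was repeated. Within 1 Mb of an assembly gap of at least 500 kb, which on most chromosomes is the centromere, lay 117 regions (8.88%, 7.40 to 10.5), against 5.56% of weaker siControl-only peaks outside coding genes (difference 3.32 points, 0.888 to 5.54), 4.33% of stronger shared peaks away from starts (difference 4.55 points, 2.54 to 6.52) and 0.310% of weaker shared peaks inside coding genes (difference 8.57 points, 7.07 to 10.2).

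The 117 regions near long gaps differed from the other 1201 in several measures. In 77 of them (65.8%) at least 50% of the words were repeated, against 83 of 1201 (6.91%). Their median GC content was 41.1% (39.8 to 42.6) against 59.3% (58.7 to 59.8), and 83 of them (70.9%) had another region within 10 kb, against 119 (9.91%). The AP-1 word was in 4 (3.42%) against 283 (23.6%). The core with up to 1 mismatch was in 17 (14.5%, 8.70 to 22.2) against 42 (3.5%, 2.53 to 4.70), but 13 of the 17 belonged to a single group on chromosome 12, described next. Without that group, a comparison chosen after seeing the data, it was in 4 of 103 (3.88%, 1.07 to 9.65), an interval that includes the share away from gaps. Their median fold enrichment was lower in both lists, 4.06 against 4.55 in siControl and 3.85 against 4.58 in siAATF, but their median −log10 q was higher, at 4.86 (4.21 to 5.64) against 4.01 (3.89 to 4.15) in siControl and at 5.35 (4.54 to 5.89) against 4.24 (4.05 to 4.41) in siAATF. Arrays of the GGAAT unit, covering at least 25% of the bases as in the chromosome 21 sequence printed above, were found in 36 regions (2.73%), 32 of them near a long gap. The share of reads that aligned to several places is not part of the lists, and the part of ambiguous alignment in these values was not tested.

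The densest group of regions lay on chromosome 12 at 34487514 to 34555662, with 14 regions in 68.1 kb, of which 13 held the core with up to 1 mismatch and 6 the exact core. Overlapping this stretch, the exact core occurred 14 times in 45.8 kb (34486466 to 34532268), which was 1.55% of the 904 exact cores on chromosomes 1 to 22 and X. A siControl peak covered 11 of the 14 and a siAATF peak covered 10, and 8 lay in the regions described here. Over all 904 exact cores, a siControl peak covered 532 and a siAATF peak covered 527. For the 6 regions with the exact core the nearest coding start was that of ALG10, 312 to 334 kb away. The median share of repeated words over the 14 regions was 2.80%, so most 31-base words of these regions were found once in the assembly. The fold enrichment of these 14 regions was among the lowest, with a median of 2.48 (1.84 to 4.26) in siControl and 2.64 (1.81 to 3.30) in siAATF, while the median −log10 q was 4.56 and 3.67.

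**Figure D5:**
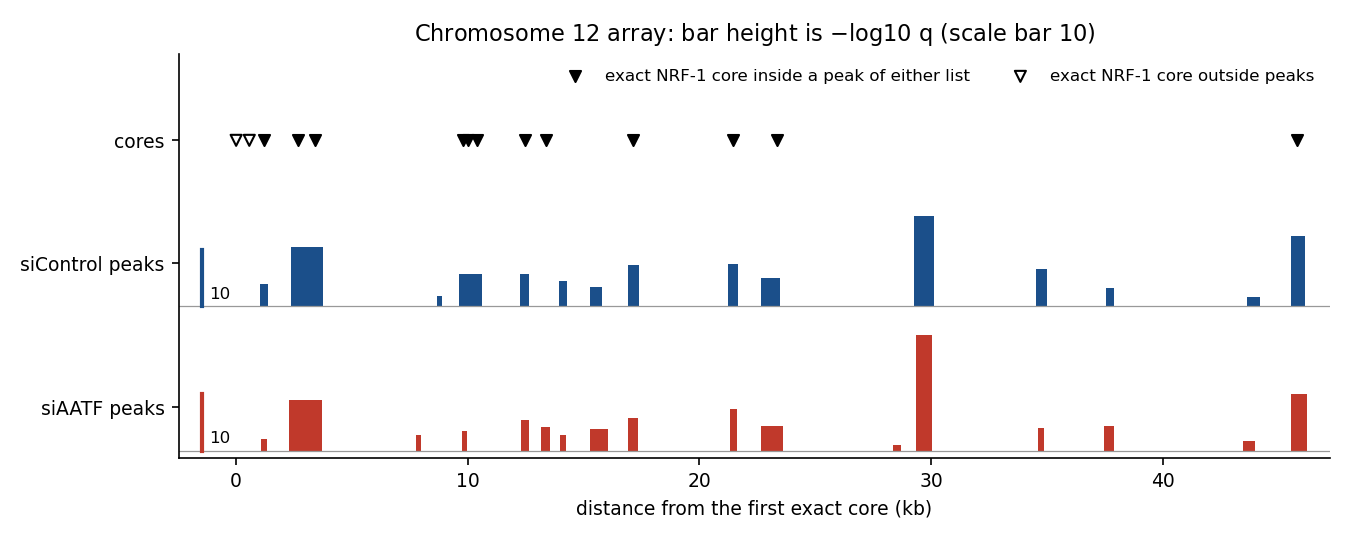
Exact NRF-1 cores (triangles) and peaks of both lists (bars) in the chromosome 12 array, by distance from the first core (kb, x axis), with bar height giving the −log10 q of the peak. Of 14 cores, 11 were covered in siControl and 10 in siAATF, beside 532 and 527 of the 904 exact cores on chromosomes 1 to 22 and X.

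The second group, on chromosome 16 at 46386154 to 46435510, lay 0.353 kb from a gap and held 12 regions in 49.4 kb. Its regions had a median of 87.3% repeated words and a median GC content of 36.5%, 7 of them were GGAAT arrays, and none held the core. The median fold enrichment was 2.17 in siControl and 2.31 in siAATF, and the median −log10 q was 3.22 and 5. The chromosome 12 and chromosome 16 groups thus shared a low fold enrichment, and they differed in GC content (63.5% against 36.5%), in repeated words and in the core.

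Single exact-core regions were unlike in location and in change. At SNHG27, a lncRNA on chromosome 4 (132651102 to 132651386), the fold enrichment was 4.47 in siControl and 4.78 in siAATF, at a rank of 27.3 and 35.8, with 52.9% repeated words. On chromosome 9 at 68412720 to 68414153, in the DUX4-like pseudogene DUX4L50, it was 3.5 and 3.54, with a −log10 q of 7.62 and 7.88. On chromosome 17 at 21906248 to 21906936 it was 4.65 and 3.75, and the −log10 q was 8.14 and 3.46, with 75.9% repeated words. On chromosome 12, the regions at 34507698 to 34508141 and 34503398 to 34503871 had a fold enrichment of 2.65 and 2.22 in siControl and of 2.97 and 2.21 in siAATF. Of the 13 regions with the exact core, 8 lay near a long gap, 6 of them in the chromosome 12 group, and of the 7 others 2 lay near a gap.

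The region with the highest siControl fold enrichment lay on chromosome 22 at 18879874 to 18880143 in the lncRNA FAM230F, with 7.79, and its siAATF counterpart had 4.69, a fall in rank from 77.3 to 33.7. This region held 52.5% repeated words. It was followed by a region on chromosome 13 at 97762175 to 97762507, 111 kb from the start of MBNL2, with 7.40 in siControl and 6.03 in siAATF, which holds the first CTCF word printed above. The third lay on chromosome 13 at 48730596 to 48730988, 61.3 kb from the start of MED4, with 7.36 and 6.53. All 3 ranked lower in siAATF, and they were chosen for a high siControl value.

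The highest −log10 q values in siAATF were on chromosome 10 at 42396822 to 42397027 (26.5, against 6.55 in siControl) and 42400246 to 42400753 (19.4 against 9.80), both near the centromere and with 44.9% and 63.4% repeated words. The siAATF counterpart of the first was 1151 bp wide, against 206 bp in siControl. The third was on chromosome 4 at 11123921 to 11124492 (18.6 against 9.89), 306 kb from the start of HS3ST1, with a fold enrichment of 7.20 in siControl and 8.62 in siAATF. It held 45.9% repeated words. The widest region, of 1728 bp, lay on chromosome 6 at 21587380 to 21589107, 4.88 kb from the start of SOX4, a transcription factor of neural progenitors. It held 9 half-sites, no AP-1 word and no core, and its fold enrichment was 4.35 in siControl and 4.22 in siAATF, at a −log10 q of 9.94 and 9.56. The third widest, of 1384 bp, lay on chromosome 17 at 41399864 to 41401247, 36 kb from the start of TMEM106A, with 4.89 and 4.94.

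The strongest regions with an AP-1 or CTCF word near the midpoint had a −log10 q close to the limit. On chromosome 8 at 135904956 to 135905315, 180 kb from the start of ZFAT, with 1 AP-1 word, the fold enrichment was 7.24 and 7.66 and the −log10 q 9.31 and 12.2. On chromosome 2 at 87928955 to 87929404, in the lncRNA CYTOR and its miRNA gene MIR4435-1, the fold enrichment was 7.23 in siControl and 8.50 in siAATF, and the −log10 q was 9.24 and 14.5. This region held 3 AP-1 words and 77.9% repeated words. On chromosome 19 at 13962050 to 13962587, 25.4 kb from the start of NANOS3, 4 AP-1 words were present, and the fold enrichment was 4.85 and 4.64. Of the CTCF regions, that on chromosome 17 at 19896114 to 19896502, 15 kb from the start of AKAP10, had 6.70 and 7.60, and that on chromosome 19 at 48453237 to 48453733, 41.7 kb from the start of BSPH1, had 7.02 and 6.51. Repeated words made up 12.5% of the former and 86.1% of the latter.

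The largest rises in rank were on chromosome 3 at 102699065 to 102699264 (11.8 to 72.7, fold enrichment 3.74 to 7.06), on chromosome 15 at 85886713 to 85886912 near AKAP13 (29.3 to 84.1, 4.57 to 7.86) and on chromosome 14 at 22801622 to 22801857 in the lncRNA TRD-AS1 (14.4 to 66.7, 3.86 to 6.63). Their siControl peaks were 200, 200 and 236 bp wide and their siAATF peaks 501, 485 and 495 bp. In the same order, repeated words made up 22.4%, 47.6% and 0% of the siControl peaks. The largest falls were on chromosome 1 at 223665464 to 223665755 near CAPN8 (58.2 to 4.57, fold enrichment 6.37 to 3.32), on chromosome X at 40104714 to 40105165 near BCOR, a corepressor gene (67.0 to 19.2, 7.02 to 4.01), and on chromosome 17 at 55888105 to 55888769 near MRPS23, a gene of the mitochondrial ribosome (51.5 to 5.73, 5.92 to 3.40). None of these 6 regions held the AP-1 or the CTCF word. They were picked as the extremes of the 1318, and no replicate was at hand to show how far ranks vary between libraries of 1 condition.

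Coding genes near the regions were described by lists chosen from knowledge of the tissue. Of 19748 coding genes, 1325 (6.71%, 6.36 to 7.07) had a region within 50 kb of a start. Nearness in the linear genome does not show that a gene is a target. For genes of AP-1 and its MAF relatives it was 5 of 19 (26.3%, 9.15 to 51.2): FOS, JUND, MAF, MAFF and MAFK. FOS, an early-response AP-1 subunit, had regions 1.22 and 30.6 kb away on chromosome 14, with a fold enrichment of 5.08 and 4.14 in siControl and of 4.49 and 4.97 in siAATF. The JUND regions on chromosome 19 were 10.001 and 22.8 kb away, with 4.8 and 3.32 in siControl and 4.50 and 3.94 in siAATF, and the first held a CTCF word and the second an AP-1 word. For MAFF, MAFK and the farther JUND region another coding start was nearer.

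Transcription factors of the glial lineage had a region nearby for 7 of 19 genes (36.8%, 16.3 to 61.6): HES1, HES5, NFIB, POU3F2, POU3F3, SOX4 and SOX8. POU3F2, a factor of neural progenitors, had 3 regions within 50 kb, with a fold enrichment of 3.39, 2.29 and 3.54 in siControl and of 3, 2.84 and 3.25 in siAATF. HES1, a target of Notch signalling, had regions 4.77 and 46.2 kb away with 3.5 and 3.66 in siControl and 3.13 and 3.62 in siAATF. The NFIB region changed most in rank among these genes, from 9.57 to 40.7, with a fold enrichment of 3.63 and 5.04. Of the regions near these 7 genes only the distal one at HES1 held an AP-1 word, and none held a CTCF word. For HES5 another coding start was nearer.

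Genes of the mesenchymal glioma programme had a region nearby for 7 of 21 (33.3%, 14.6 to 57.0), among them COL1A1, PLAUR, S100A11, STAT3 and TNC. TNC, an extracellular matrix protein, had a region 46.4 kb away with a fold enrichment of 5.26 in siControl and 5.13 in siAATF, and the STAT3 region had 5.48 and 5.42. Another coding start was nearer for some of the mesenchymal list, among them STAT3, PLAUR and the farther COL1A1 region. Of the glioblastoma drivers 2 of 25 (8%, 0.984 to 26.0) had a region nearby, the receptor gene FGFR3 (4.42 in siControl and 3.14 in siAATF) and the p53 regulator MDM4 (4.97 and 4.67).

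For genes of the respiratory chain and ATP synthase, which the study examined as targets of NRF-1, a region was within 50 kb for 8 of 78 (10.3%, 4.53 to 19.2), an interval that includes the 6.71% of all coding genes. These were ATP5F1E, ATP5MC2 and ATP5MJ of ATP synthase, CYC1 of complex III, and NDUFA1, NDUFA8, NDUFB4 and NDUFS6 of complex I. The fold enrichment was lower in siAATF for 7 of the 8, as was the percentile rank, while over all 1318 regions the fold enrichment was lower in siAATF for 632 (48.0%) and the rank for 574 (43.6%). Most regions near the glial and mesenchymal genes, and those near both drivers, also had a lower fold enrichment in siAATF. Those near the AP-1 list were mixed. A lower value was thus not particular to the respiratory genes. For ATP5F1E the rank was nearly equal, 55.9 in siControl and 55.6 in siAATF, and with 8 regions of 1 library per condition nothing particular to these genes was tested. CYC1 had 6.21 in siControl and 4.10 in siAATF, NDUFA8 4.88 and 3.71, and NDUFS6 4.96 and 4.03. ATP5MC2, with 4.42 and 4.58, was the exception, and its region held both an AP-1 and a CTCF word. These distal regions lay 8.88 to 33.9 kb from the starts, and for CYC1, NDUFA8, NDUFS6 and ATP5F1E another coding start was nearer.

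The largest number of regions within 50 kb of 1 coding gene was 3, reached by 18 genes. Among them were ID3, an inhibitor of helix-loop-helix factors, DUSP1, a phosphatase of MAP kinases, KLF2, a zinc finger factor, E2F2, a factor of the cell cycle, and WNT7B, a WNT ligand.

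Under the same rule the siAATF list gave values close to these. Its 1332 regions held the half-site in 54.4%, the AP-1 word in 23.2%, the CTCF word in 9.31% and the core with up to 1 mismatch in 4.50%, had a median GC content of 58.3%, and overlapped no annotated gene in 78.5%. The lists share most of these regions by construction, so this is not an independent observation.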

How the data were processed

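NRF-1 ChIPmentation libraries of U251 cells were analysed from 1 broadPeak list per condition. The series' design text names U138 cells and the sample labels name U251, and the labels were followed. Per the study's methods, reads were aligned to hg19 with Bowtie2 and peaks called with MACS2 in an ATAC-seq pipeline with default parameters. No input or IgG library was named, and whether the duplicates described were pooled was not stated. The authors deposited for each peak a fold enrichment, which is a ratio over local background, a −log10 p, a −log10 q and a display score, of which the score and the −log10 p were not used. No peak had a −log10 q below 1.03 (siControl) or 1.02 (siAATF). The lists carry no read totals, and the depth behind each value was unknown. Whether reads were shifted for the offset of the transposase was not stated, and such a shift would move peak edges.

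Sequence was read from the primary assembly of GRCh37, and genes from GENCODE 44 in its version lifted to that build, with Python 3.11.15, pandas 2.3.3, numpy 2.4.6, scipy 1.17.1 and pysam 0.24.0. Coordinates are 1-based. Shares were given exact Clopper-Pearson 95% intervals, differences of shares Newcombe intervals and medians order-statistic intervals. Scripts were tested on simulated peaks with known answers. The rule for named regions took the 3 with the highest siControl fold enrichment, the 3 with the highest siAATF −log10 q, the 3 widest, the 4 exact-core regions with the highest −log10 q, the 3 strongest with each of the AP-1 and CTCF words near the midpoint, the 3 largest rises and falls in rank, the 2 densest groups and the peaks on either side of the limit. Further regions in gene lists, lncRNAs and small RNA genes were picked after their values were seen. The regions, words, gene lists and alternatives were chosen with earlier results of these data known. The repeat-masked share of bases that had been planned was not computed, since the genome used here carries no repeat masking, and repeated 31-base words took its place. Values at 1 gene of the mesenchymal list are not reported here.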

Additional observations from a re-analysis of the deposited data

How the results depend on the processing

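No paired analysis was possible because each condition had a single list. Alternatives were a −log10 q under 5, a reciprocal overlap of at least 50%, the rule applied to the siAATF list, start windows of 500 bp or 2 kb, peaks up to 500 bp apart taken as shared, leaving out regions near long gaps, words within 100 bp of the midpoint and ranking by −log10 q. Of 64 alternative values over 12 results, 49 stayed within the 95% interval, or within 1.5 times for the number of regions, and 15 moved. With a −log10 q under 5 there were 824 regions, the half-site share was 48.7%, the median siAATF rank 25.1 and the retained share 55.6%. With reciprocal overlap the siAATF rank was 33.8 and the retained share 55.6%. Without regions near long gaps the repeated share fell to 6.91% and the median distance to a coding start to 33.8 kb. With 2 kb windows the lncRNA share was 15.9%, since lncRNA starts take up more of each body. Within 100 bp of the midpoint, a narrower search, the AP-1 word was in 15.2%, the CTCF word in 5.08% and the core with up to 1 mismatch in 3.34%. The exact core was in 0.986%, and the AP-1 word read backwards in 3.57%. Ranked by −log10 q the median siAATF rank was 29.0. Where no reason is given, the cause was not tested. The values for the half-site, the repeated share and the word read backwards were chosen after seeing the data, as were the rank changes by word under other limits. The unknown depth limits what a weak peak or its absence can show.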
